A study of Mus musculus with 2 samples.

Results

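The genes analyzed here are 8 of the 24532 genes in the deposited table and were chosen by symbol: *Zscan4c*, *Zscan4d*, *Zscan4f*, *Tcstv1*, *Tcstv3*, *Usp17le*, *Dppa2* and *Dppa4*. The first 6 are known for their expression in the 2-cell embryo and in the small share of embryonic stem cells (ESCs) that enter a 2-cell-like state, and *Dppa2* and *Dppa4* encode a pair of chromatin proteins known to activate that state. Their RNA was measured in mouse E14 ESCs grown with serum and leukemia inhibitory factor (LIF) and in E14-Sox2TA/WT cells, an E14-derived clone with T258A on 1 *Sox2* allele and a wild-type sequence on the other. T258A replaces a threonine that can carry O-GlcNAc, a sugar attached to serine or threonine, with alanine, which cannot, and the comparison asks which genes depend on that modification. CRISPR/Cas9 was used to make the change, and the donor was single-stranded DNA. The clone grew from a single sorted cell, was normally kept with serum, LIF and 2i (the inhibitors PD0325901 and CHIR99021), and was used at passages after 2i had been removed, so genotype, clone and culture history differ together and their effects cannot be told apart.

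Each genotype had 1 library, with 60263536 counted reads in E14 and 44609228 in E14-Sox2TA/WT cells, so no difference below has a replicate check and no test is given. The 95% intervals were computed from the read counts and describe counting error only, not the spread between cultures or clones. They are too narrow even for counting error where PCR copies of a molecule are counted as separate reads. *Sox2* had 28936 reads in E14 and 14270 in the smaller E14-Sox2TA/WT library, with a log2 TPM ratio of -0.44 (-0.47 to -0.41). A gene table does not show which allele was read. All 8 ESC markers examined were expressed in both libraries. Of these, 5 were lower in E14-Sox2TA/WT cells and 3 higher, where 8122 of 16225 genes with at least 10 reads were lower. Their summed level was 12109 and 9073 TPM, and *Dppa5a* had the largest share of it, at 6877 and 4429 TPM. *Nanog* was past 2-fold lower (36683 and 11728 reads, log2 ratio -1.07), whereas *Pou5f1* had 73463 and 50098 reads (0.03). Of 10 fibroblast feeder markers, *Postn*, *Dcn* and *Lum* had no reads in either library, and the summed level of the list was 56.3 TPM (a level scaled for transcript length and library size) in E14 and 21.1 TPM in E14-Sox2TA/WT cells. *Thy1* made up most of that sum, at 40.1 and 11.4 TPM. Of the 6 with at least 10 reads, 3 were lower, *Thy1*, *Pdgfra* (1280 and 218 reads) and *Pdgfrb* (1151 and 327 reads). The other 3 were higher, among them *Col3a1* (15 and 151 reads) and *Col1a2* (43 and 109 reads).

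In mouse ESC cultures, a few cells at a time enter a state that resembles the embryo at genome activation. The transcription factor Dux is a main driver of that state and binds directly at genes such as the *Zscan4* cluster, whereas Dppa2 and Dppa4 act upstream of *Dux*. Zscan4 proteins carry a SCAN domain and zinc fingers and are known for telomere maintenance in ESCs, and Usp17l proteins are deubiquitinases. In bulk RNA, a smaller number of 2-cell-like cells and less RNA in each such cell cannot be told apart.

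The first 6 genes are members of clustered families. The *Zscan4* cluster spans 820 kb of chromosome 7, and the GENCODE M21 annotation of GRCm38, the build of the table (mm10), places *Zscan4c* (chr7:11005745-11010547, plus strand), *Zscan4d* (chr7:11161374-11166159, minus strand) and *Zscan4f* (chr7:11397915-11402318, plus strand) there with 4 exons each. *Usp17le* (chr7:104768049-104777470, minus strand, 3 exons) lies elsewhere on chromosome 7 beside *Usp17lb* and *Usp17la*. *Tcstv1* (chr13:119893388-119894785, minus strand) and *Tcstv3* (chr13:120316878-120318178, plus strand) have 2 exons each. *Dppa4* (chr16:48283735-48294237) and *Dppa2* (chr16:48310477-48319723) are neighbors on the plus strand of chromosome 16, with 7 exons each. No member overlapped another RefSeq gene.

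How alike the copies are is shown by the *Zscan4* promoters. The stretches below are 154 bases each from RefSeq (GRCm38.p6) and are printed 5′ to 3′ because the 3 *Zscan4* members differ there at few positions. Capitals mark TATAAA, the core of a TATA box, and TGATTCAA, which are 8 letters of the motif known for Dux. *Zscan4b*, a copy outside the set, is printed because it lacks the second motif. The stretches are chr7:11005551-11005704 (plus strand) for *Zscan4c*, chr7:11166200-11166353 (minus strand) for *Zscan4d*, chr7:11397744-11397897 (plus strand) for *Zscan4f* and chr7:10905068-10905221 (minus strand) for *Zscan4b*.
Zscan4c: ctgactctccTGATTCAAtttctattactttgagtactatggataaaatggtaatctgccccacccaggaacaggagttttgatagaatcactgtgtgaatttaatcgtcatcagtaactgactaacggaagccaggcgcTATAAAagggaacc
Zscan4d: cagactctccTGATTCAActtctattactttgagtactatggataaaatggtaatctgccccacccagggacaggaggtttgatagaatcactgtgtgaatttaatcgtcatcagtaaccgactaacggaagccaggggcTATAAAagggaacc
Zscan4f: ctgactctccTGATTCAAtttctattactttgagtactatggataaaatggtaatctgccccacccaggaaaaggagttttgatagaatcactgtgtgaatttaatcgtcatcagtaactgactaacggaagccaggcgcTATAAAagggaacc
Zscan4b: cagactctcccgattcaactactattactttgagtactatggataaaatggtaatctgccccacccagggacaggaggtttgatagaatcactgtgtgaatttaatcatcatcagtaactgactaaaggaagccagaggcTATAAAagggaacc

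The stretches of *Zscan4c* and *Zscan4f* differed at 1 position, C72A, where positions are counted from the 5′ end of the stretch and the base of *Zscan4c* is given first. *Zscan4d* differed from *Zscan4c* at 6 positions and from *Zscan4f* at 7. *Zscan4b* departed from *Zscan4c* within the 8 letters at C11T, with the base of *Zscan4b* first. TGATTCAA began 130 bases before TATAAA in all 3 members, and TATAAA began 54, 65 and 31 bases before the annotated start of *Zscan4c*, *Zscan4d* and *Zscan4f*. Searched on both strands without overlap between the motifs, TATAAA was found in 13.6% of 32851 RefSeq promoters of the same length, from 250 bases before to 50 bases after the start, and TGATTCAA in 0.581%. Neither CATTGT, the core recognized by Sox proteins and found in 12.6% of promoters, nor the octamer ATGCAAAT, found in 1.74%, occurred in the promoters of *Zscan4c*, *Zscan4d* and *Zscan4f*. A match of letters is a description of sequence and was not tied to binding here.

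Copies this close share sequence in their transcripts, which bears on every count below. Of all 100-base windows of the *Zscan4f* transcript, 89.5% also occurred in a transcript of another gene, compared with 72.8% for *Zscan4c* and 29.6% for *Zscan4d*. *Zscan4f* shared 69.6% of its windows with *Zscan4c* and 74.9% with *Zscan4-ps2*, which was not analysed here. The share was 8.73% for *Usp17le*, 7.79% for *Tcstv3* and 6.44% for *Tcstv1*. For *Dppa2* it was 30.3% and for *Dppa4* 16.8%, mostly with the predicted genes *Gm9788* and *Gm14058*, respectively, which were not analysed here. How the authors treated reads that map to several genes is not given in the sources used here, so the split of reads among *Zscan4* copies is uncertain, and each family was also summed.

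**Figure D1:**
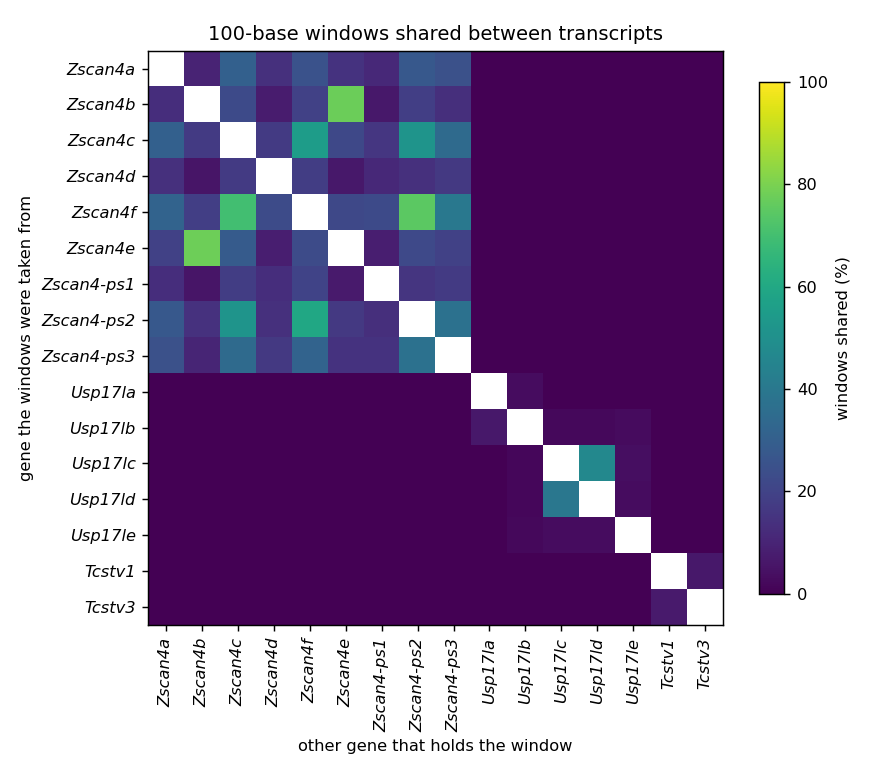
Percentage of the 100-base windows of each transcript (rows) that also occur in the transcript of another gene (columns), for GENCODE M21 transcripts of the *Zscan4*, *Usp17l* and *Tcstv* copies, with the diagonal left blank. *Zscan4f* and *Zscan4c* share 69.6% of the windows of *Zscan4f*, whereas *Usp17le* shares 3.47% of its windows with *Usp17lc* and 0.168% with *Usp17la*.

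Read counts differed widely among the members. In E14 the counts were 2048 for *Zscan4c*, 649 for *Zscan4d* and 2464 for *Zscan4f*, and in E14-Sox2TA/WT cells they were 1794, 816 and 2197 in the same order. *Usp17le* had 837 reads in E14 and 197 in E14-Sox2TA/WT cells. *Tcstv1* had 17 and 9 reads and *Tcstv3* had 82 and 54. The *Tcstv* genes thus rest on the fewest reads of the set. *Dppa2* had 5677 and 6196 reads and *Dppa4* had 7071 and 6251. All 8 members had at least 10 reads over both libraries, the minimum used for ratios.

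Per length, *Dppa4* was the most abundant member in both libraries, at 146.7 TPM in E14 and 193.3 TPM in E14-Sox2TA/WT cells, followed by *Dppa2* at 92.9 and 151.2 TPM. *Zscan4f* came next at 42.8 and 56.9 TPM and *Zscan4c* at 28.6 and 37.3 TPM. *Usp17le* stood above *Zscan4d* in E14 (14.1 against 10.3 TPM) and below it in E14-Sox2TA/WT cells (4.93 against 19.4 TPM). *Tcstv3* (2.93 and 2.91 TPM) and *Tcstv1* (0.591 and 0.447 TPM) were lowest. The counting intervals of neighbors in this order did not overlap within either library. In E14 the level of *Dppa4* exceeded that of 95.5% of all genes and that of *Tcstv1* 42.5%.

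**Figure D2:**
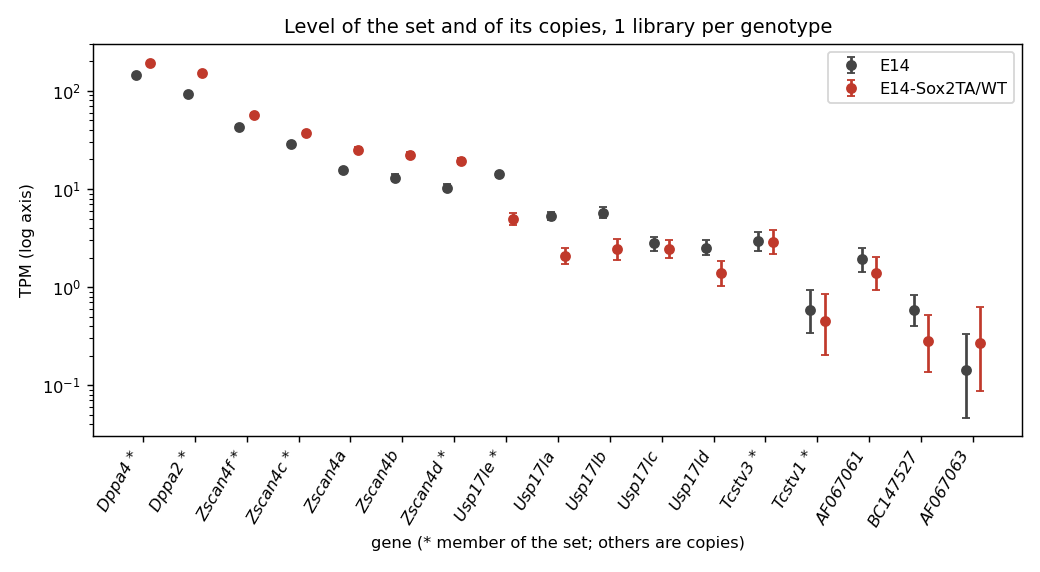
Level in TPM (log axis) of the 8 members, marked with an asterisk, and of 9 copies from the same families in E14 (grey) and E14-Sox2TA/WT cells (red), 1 library each, with bars for the 95% counting interval. *Usp17le* lies at 14.1 TPM in E14 and 4.93 TPM in E14-Sox2TA/WT cells, whereas *Zscan4d* lies at 10.3 and 19.4 TPM.

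In the comparison of E14-Sox2TA/WT cells with E14, the members moved in opposite directions. The 3 *Zscan4* members and both *Dppa* genes were higher, *Usp17le* was lower, and the *Tcstv* genes were not distinguishable at this depth. A call first required a difference of more than 2-fold and 10 TPM or more in either library, a level that 6 of the 8 members reached. By that rule 0 members were higher, where 4.18% of 9094 genes were called, and 1, *Usp17le*, was lower, where 4.07% were called. When the counting interval had to lie wholly past 2-fold, in genes with at least 10 reads, the members again gave 0 higher (4.63% of 16225 genes called) and 1 lower (7.54% called). The counting interval lay above no change for 5 members, where 39.1% of genes were called, and below it for 1, where 37.6% were called. Such intervals therefore excluded no change for most genes of the table. Ratios of counts over the library total were lower than TPM ratios by 0.08 to 0.16 on the log2 scale among the members, which left each member on its side of 0.

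*Zscan4d* had the largest increase of the set, with a log2 TPM ratio of 0.91 (95% counting interval 0.76 to 1.06), or 1.88-fold. *Zscan4f* and *Zscan4c* were higher by 0.41 (0.33 to 0.50) and 0.39 (0.29 to 0.48), respectively. The ratio of *Zscan4d* exceeded that of *Zscan4c* by 0.52 (0.35 to 0.70). *Zscan4c* and *Zscan4f*, which share the most sequence among the *Zscan4* members, differed by -0.03 (-0.15 to 0.10). These intervals take the counts of the copies as independent, which they are not where reads were split between copies. Of all genes with at least 10 reads, 8.83% had a higher ratio than *Zscan4d*.

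The copies outside the set moved the same way. *Zscan4a*, which RefSeq lists as a transcribed pseudogene, had 1101 and 1200 reads (log2 ratio 0.70), and *Zscan4b*, whose promoter lacks TGATTCAA, had 724 and 826 (0.77). Of the 100-base windows of *Zscan4b*, 78.6% also occurred in another gene, and 77.6% occurred in *Zscan4e*, which was not analysed here. Which copy the reads of *Zscan4b* came from is therefore uncertain, and its ratio does not bear on the motif. Counts were available for 5 of the 9 listed *Zscan4* copies, so reads from the others may be missing from the sum. Summed over these 5 *Zscan4* genes, the family had 6986 reads in E14 and 6833 in E14-Sox2TA/WT cells. The E14-Sox2TA/WT library held fewer reads in all, and on the TPM scale the sum was 1.46-fold higher (log2 ratio 0.55, 0.50 to 0.59). Within the family, the share of reads assigned to *Zscan4f* was 35.3% in E14 and 32.2% in E14-Sox2TA/WT cells, and that of *Zscan4d* was 9.29% and 11.9%.

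*Usp17le* was the only member past 2-fold. Its log2 ratio of -1.51 (-1.75 to -1.29) left 0.350 of the E14 level, and 6.57% of genes with at least 10 reads had a lower ratio. All 5 *Usp17l* genes had ratios below 0. *Usp17la* (444 and 117 reads, -1.35) and *Usp17lb* (255 and 73 reads, -1.24) lie in the same stretch of chromosome 7 as *Usp17le*, and their ratios did not differ from that of *Usp17le* beyond counting error, by 0.16 (-0.21 to 0.53) and 0.28 (-0.16 to 0.71).

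The other pair of *Usp17l* genes, more than a megabase away on the same chromosome, differed less between the libraries. *Usp17ld* had 131 and 49 reads (-0.85, -1.35 to -0.36), and *Usp17lc* had 150 and 88 reads (-0.19, -0.58 to 0.20). The ratio of *Usp17lc* exceeded that of *Usp17le* by 1.33 (0.88 to 1.77). *Usp17lc* and *Usp17ld* shared much of their sequence, with 46.6% and 39.5% of 100-base windows found in another gene, so the split between them is uncertain. Summed over the family, 1817 reads in E14 and 524 in E14-Sox2TA/WT cells gave a 2.32-fold lower level (log2 ratio -1.22, -1.36 to -1.08).

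The *Tcstv* genes gave too few reads to place. The log2 ratio was -0.40 for *Tcstv1* (-1.75 to 0.84) and -0.01 for *Tcstv3* (-0.53 to 0.50), and both intervals included no change. The *Tcstv* family, summed over the 5 of 11 listed genes that had counts, had 190 and 105 reads, with a ratio of -0.28 (-0.64 to 0.07). This sum leaves out *Gm21761* (1319 and 1097 reads, 0.31) and *Gm20767* (361 and 244 reads, 0.01), which lie in the same cluster. Of the 50-base windows of *AF067061*, a listed copy, 21.5% also occurred in *Gm21761* and 16.7% in *Gm20767*. A sum with both was not computed, so the ratio holds for the listed genes only. The summed *Zscan4* ratio exceeded the *Usp17l* ratio by 1.76 (1.61 to 1.91) and the ratio of the listed *Tcstv* genes by 0.82 (0.48 to 1.17). These intervals hold counting error only, and a shift common to the families was not tested.

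*Dppa2* and *Dppa4*, which encode SAP-domain proteins that bind chromatin as a pair, were both higher in E14-Sox2TA/WT cells. The log2 ratio was 0.70 (0.65 to 0.76) for *Dppa2* and 0.40 (0.35 to 0.45) for *Dppa4*, and the difference between them was 0.31 (0.23 to 0.38). *Dppa2* took 44.5% of the reads of the pair in E14 and 49.8% in E14-Sox2TA/WT cells. Summed, the pair was 1.46-fold higher.

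**Figure D3:**
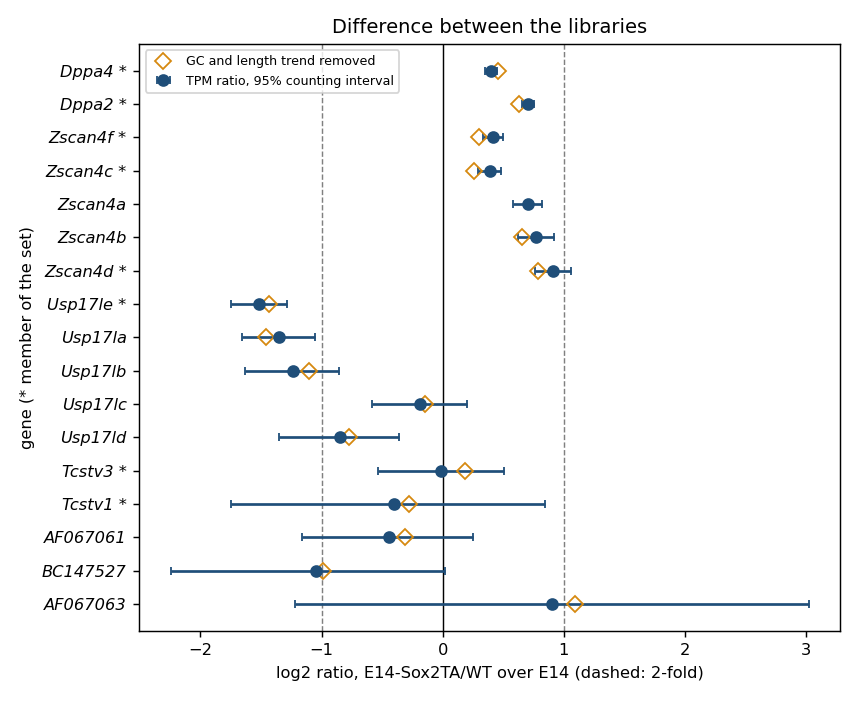
log2 TPM ratio of E14-Sox2TA/WT cells over E14 for the members (asterisk) and their copies, with 95% counting intervals (blue) and, as open diamonds, the ratio after correction for GC content and length of the transcript. Values run from -1.51 for *Usp17le* to 0.91 for *Zscan4d* among members, and dashed lines mark 2-fold.

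The 2 libraries also differed by transcript length and GC content, and these values stand beside the ratios of the members. The median log2 ratio of all genes ran from -0.25 in the bin of shortest transcripts (median 705 bases) to 0.49 in the bin of longest (median 9368 bases), and from 0.33 at 38.9% GC to -0.18 at 61.7% GC. Member transcripts ran from 779 bases for *Tcstv3* to 2276 for *Zscan4c*. With the trend removed, the ratio was 0.26 for *Zscan4c*, 0.78 for *Zscan4d*, 0.30 for *Zscan4f*, 0.63 for *Dppa2*, 0.46 for *Dppa4* and -1.43 for *Usp17le*. These 6 and *Tcstv1*, at -0.28, kept their direction, whereas *Tcstv3* became 0.18.

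**Figure D4:**
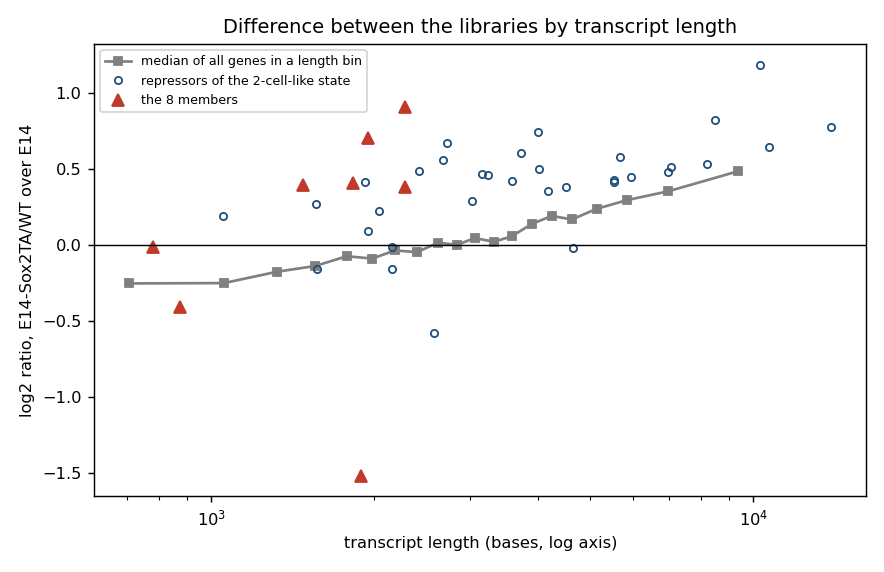
log2 TPM ratio against transcript length (log axis) for the 8 members (red triangles) and 33 repressors of the 2-cell-like state (open circles), with the median of all genes in each of 20 length bins (grey). The median rises from -0.25 to 0.49 with length, and *Usp17le* lies far below it at -1.51.

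Other genes of the 2-cell-like state did not move together. Of 47 such genes written down from general knowledge, 33 had at least 10 reads, of which 17 were higher and 16 lower, with a median log2 ratio of 0.01, the same as the median of all 16225 genes with at least 10 reads. The counting interval lay above no change for 7, where 39.1% of all genes were called, and below it for 12, where 37.6% were called. It included no change for 14 genes of the list. *Fgf1*, a growth factor, was the only one with an interval wholly past 2-fold, with 157 and 281 reads (1.42, 1.14 to 1.71). The extremes rested on few reads, with *Tdpoz4* lowest at 26 and 5 (-1.85, -3.59 to -0.45) and *Spz1* highest at 15 and 34 (1.83, 0.92 to 2.82). *Rfpl4b*, which had 10 reads in E14 and none in E14-Sox2TA/WT cells, was at least 2.23-fold lower against a floor of 3 reads per library. It, *Dux*, the activator *Smad7* and the repressors *Zmym2*, *Ncl*, *Kat5* and *Dmap1* were named after their values were seen. *Dux* itself had 44 and 28 reads, with a ratio of -0.11 (-0.85 to 0.60).

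Repressors of the state were expressed at 15.8 TPM or more in E14, and most were higher in E14-Sox2TA/WT cells. Among 33 genes known to repress it, including chromatin assembly, H3K9 methylation, SUMO and Polycomb factors, 28 were higher in E14-Sox2TA/WT cells and 5 lower, compared with 57.9% of 9592 genes with at least 1000 reads that were higher. The list had a median log2 ratio of 0.45, against 0.09 for all genes with at least 1000 reads. After this correction for GC and length, the medians were 0.27 and 0.03, and 28 of the 33 were above 0, of which 26 had also been above 0 before it. Among all genes with at least 1000 reads, 5059 of the 9502 that could be corrected were above 0 after it. *Zmym2* and *Ncl* went from 0.48 and 0.53 to -0.08 and -0.01, and *Kat5* and *Dmap1* from -0.01 and -0.16 to 0.12 and 0.08. *Atrx*, a chromatin remodeler, was the only one past 2-fold, with 10275 and 15690 reads (1.19, 1.15 to 1.22). Its transcript is 10275 bases long, and its ratio was 0.50 with the trend removed. *Pias4*, a SUMO ligase, was lowest, with 4058 and 1821 reads (-0.58, -0.66 to -0.50).

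Of 13 listed activators, which include 5 of the members (*Dppa2*, *Dppa4*, *Zscan4c*, *Zscan4d* and *Zscan4f*), 9 had at least 10 reads. Of these, 6 were higher, those 5 members and *Smad7* (4601 and 3906 reads, 0.34), and 3 were lower, none of them a member. The count of higher activators thus mostly repeats the members. *Gata2*, a GATA-family transcription factor, was the only one past 2-fold, with 327 and 62 reads (-1.83, -2.24 to -1.43). Of 2 genes listed as targets of Dppa4, the cardiac factor *Nkx2-5* had 62 and 7 reads (-2.79, -4.16 to -1.66), and *Syce1*, which encodes a synaptonemal complex protein, had 860 and 586 (0.02, -0.13 to 0.18). Across 14 telomere genes the median was 0.05, or -0.09 for counts over the library total, with *Pot1b*, a telomere end-binding protein, highest at 485 and 734 reads (1.18, 1.01 to 1.35) and *Dkc1*, a component of telomerase ribonucleoprotein, lowest at 21655 and 10997 (-0.40, -0.43 to -0.37).

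**Figure D5:**
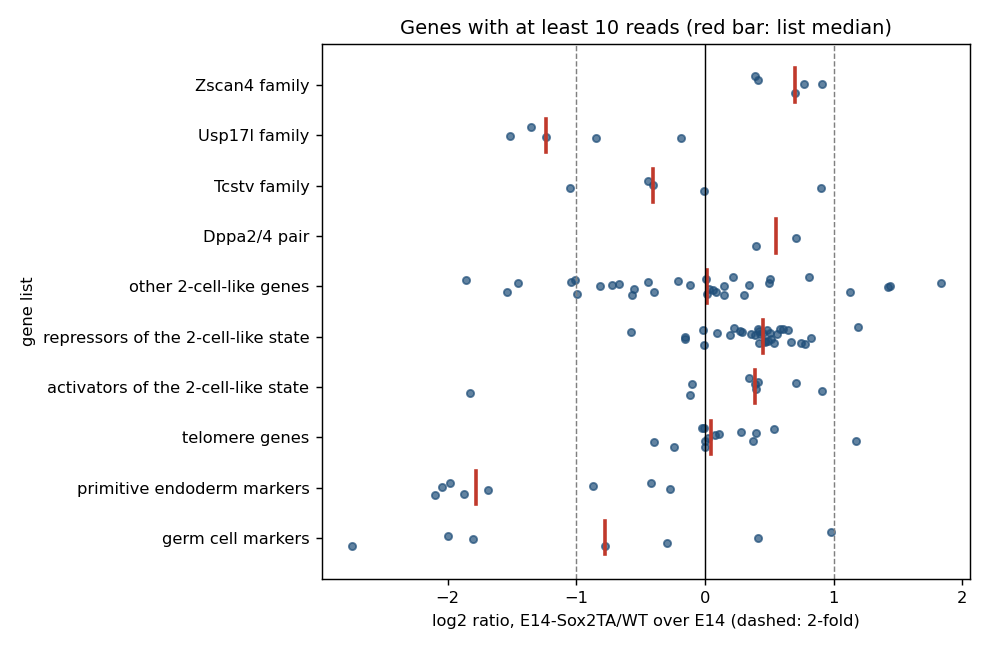
log2 TPM ratio of E14-Sox2TA/WT cells over E14 for genes with at least 10 reads and reads in both libraries, by list, with a red bar at the list median. The *Zscan4* genes lie between 0.39 and 0.91 and the *Usp17l* genes between -1.51 and -0.19, whereas other 2-cell-like genes spread on both sides of a median of 0.01.

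Markers of other cell types moved between the libraries as well. Of all 16225 genes with at least 10 reads, 8122 were lower and 8103 higher. Counting intervals lay wholly past 2-fold lower for 7.54% of these genes and wholly past 2-fold higher for 4.63%. Of 8 germ cell markers, *Oosp1* had no reads, and 5 of the other 7 were lower in E14-Sox2TA/WT cells, where the summed level was 69.8 TPM against 140.9 TPM in E14. *Mael*, a piRNA pathway gene, had 3236 and 544 reads, *Tex101* had 296 and 30 (-2.75) and *Zp3* had 411 and 79 (-1.80). The other 2 were higher, with *Dppa3* highest at 159 and 211 reads (0.98, 0.68 to 1.29). All 8 primitive endoderm markers were lower, with a median log2 ratio of -1.78, and *Gata6*, *Gata4*, *Sox17*, *Sox7* and *Pdgfra* had intervals wholly past 2-fold. Their summed level was 108.8 TPM in E14 and 63.8 TPM in E14-Sox2TA/WT cells, most of it from *Col4a1* (61.9 and 46.4 TPM). Of 8 trophoblast markers, *Elf5* had no reads, 6 of the other 7 were higher, and the summed level was 164.8 and 312.7 TPM. The higher sum came from *Krt8* (53.9 and 156.0 TPM) and *Krt18* (54.0 and 117.5 TPM), *Cdx2* had 32 and 554 reads (4.69), and *Tfap2c* was lower at 50.9 and 16.1 TPM (-1.67). The part of these cell types in the lower level of *Usp17le* and in the higher levels of the *Zscan4* and *Dppa* genes was not tested.

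Genes beside the members were read out to see whether the loci moved as a whole. None of the 32 other RefSeq genes inside the *Zscan4* cluster had 10 reads. The nearest expressed genes on either side were *Zik1*, 299 kb away (1311 and 998 reads), and *Zfp551*, 798 kb away (127 and 107 reads). Their ratios were 0.18 and 0.33. *Gm45351*, farther out on the side of *Zik1*, was lower with 80 and 10 reads (-2.44, -3.55 to -1.48). Around *Usp17le*, *Usp17lb* and *Usp17la*, the nearest expressed genes went the other way. *Trim30d*, 260 kb away, had 11 and 25 reads (1.73, 0.65 to 2.90), and *Fam160a2*, 509 kb away, had 3957 and 3134 (0.23). *Cckbr*, 563 kb away, was lower with 45 and 13 reads (-1.21). Around *Usp17ld* and *Usp17lc*, the nearest were *Trim68*, 563 kb away (551 and 217 reads, -0.78, -1.01 to -0.55), and *Trim6*, 800 kb away (12791 and 9263 reads, 0.11). Downstream of *Dppa2*, *Morc1*, a germline gene 112 kb away, was lower (4816 and 1735 reads, -0.90, -0.98 to -0.82). *Dzip3*, a ubiquitin ligase gene 605 kb away, was higher (1792 and 2743 reads, 1.20, 1.12 to 1.29). So was *Cip2a*, 675 kb away (7067 and 7466 reads, 0.66, 0.61 to 0.70). On the side of *Dppa4* the nearest expressed gene was *Nectin3*, 1785 kb away, which was higher (2032 and 2189 reads, 0.66, 0.57 to 0.75). Farther out, *Gm4737* was at -0.06 and *Cd96* had 0 and 17 reads. Beside the *Tcstv* cluster, *Zfp131* was at 0.27 and *Nim1k* at -1.15. Inside it, *Gm21761* had 1319 and 1097 reads (0.31, 0.19 to 0.43), more than the *Tcstv* family in sum, and 10.5% of the 50-base windows of *Tcstv1* and 10.1% of those of *Tcstv3* also occurred in its transcript. The other expressed genes inside were *B020031M17Rik* (19 and 22 reads, 0.82, -0.13 to 1.79) and *Gm20767* (361 and 244 reads, 0.01, -0.23 to 0.25).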

How the data were processed

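Polyadenylated RNA was sequenced from 1 library of E14 and 1 of E14-Sox2TA/WT cells. The submitters' processing notes name bcl2fastq 2.20.0, Trimmomatic, HISAT2 2.1.0 and StringTie 2.1.3b, and the builds mm10 and hg19. The deposited read counts are whole numbers per gene, which the authors did not normalize. The FPKM values deposited by the authors are scaled to length and fragments, and the deposited TPM values are a constant multiple of FPKM within a library at all 8 members. The handling of strand and of reads with several matches is not given in the sources used here.

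The deposited TPM ratio was taken without a pseudocount. Its 95% interval is the exact Clopper-Pearson interval of the read counts, placed on the TPM scale. Intervals of summed families used the same method. Intervals of differences between ratios used a normal approximation from the counts. Sequences and positions came from RefSeq and GENCODE M21. Scripts were tested on simulated data. Alternatives included TMM scaling (edgeR 4.0.16) and size factors (DESeq2 1.42.0).

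The members and lists were chosen with earlier results of these data known. All members were named. From each other list, genes with a counting interval wholly past 2-fold and those with the highest and lowest ratio could be named, as could the nearest 3 expressed genes on each side of a locus. Exceptions are stated, apart from *Sox2*, *Pou5f1*, *Dppa5a* and *Col4a1*, which were named after their values were seen.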

Additional observations from a re-analysis of the deposited data

How the results depend on the processing

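Each genotype had 1 library, so no replicate could be left out. No paired analysis was possible because the labels give no replicate numbers and each genotype has 1 library. Over 8 alternatives for each of the 8 members, 63 of 64 log2 ratios kept the sign of the reported value, and the exception was *Tcstv3* at 0.18 with the GC and length trend removed, an alternative chosen after seeing the data. TPM ratios of the members were 0.08 (*Tcstv1*) to 0.16 (*Tcstv3*) higher on the log2 scale than ratios of counts over the library total (CPM), and the median offset over genes with many reads was 0.14. The number of members past the fold threshold was 2 higher at 1.5-fold in place of 0, and 0 lower at 3-fold in place of 1. The summed *Zscan4* ratio of 0.55 was 0.40 with CPM, 0.43 with the trend removed and 0.48 over the 3 members alone. The summed *Usp17l* ratio of -1.22 was -1.36 with CPM and -1.51 for *Usp17le* alone, where the other 4 copies were left out. Sums over members alone were also added after seeing the data. The median of the telomere list, 0.05, was -0.09 with CPM and 0.18 with the trend removed, and the median of the other 2-cell-like genes, 0.01, was -0.13 and -0.19. Depth limits the *Tcstv* genes most, and the counting interval of *Tcstv1*, -1.75 to 0.84, covers lower and higher levels alike.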
